A study of Mus musculus with 16 samples.

Results

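The genes described here are 10 contractile genes of smooth muscle, matched by symbol to the gene identifiers of the expression table through the mouse annotation. They are 10 of 54453 genes in the table, and all 10 were among the 15285 protein-coding genes that were tested. Smooth muscle cells contract when myosin pulls on filaments of smooth-muscle actin, while tropomyosins, calponins and leiomodins cover, stabilise or elongate these filaments. Part of the same programme is switched on in activated fibroblasts and in fibroblasts grown on plastic, where Acta2 is the usual marker of the myofibroblast state. In both settings many of the genes are known targets of serum response factor (Srf), which binds a DNA motif called the CArG box together with co-activators of the myocardin family.

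Total RNA was sequenced from 16 lines of mouse embryonic fibroblasts (MEFs). Both parental lines, MEF-1 and MEF-2, came from sibling C57BL/6J embryos at embryonic day 13.5 and were immortalised by passaging through crisis. From each of them, 7 clonal lines were grown from single cells isolated by flow cytometry, and all lines were harvested at 75% confluency without any treatment. Each line has 1 library and each clonal line is 1 clone, so differences between clones and between libraries cannot be told apart. Embryo, its sex, immortalisation and set likewise cannot be told apart, since MEF-1 came from a male and MEF-2 from a female embryo and each set of clonal lines goes back to 1 embryo and 1 immortalised culture. As the samples are bulk cultures, fewer cells of a type and less RNA per cell cannot be told apart.

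The deposited values are rlog values, which are log2 read counts scaled for library size, with the deviations of a gene from its average shrunken most where counts are low. Differences are therefore understated for weakly expressed genes. Read depth per line is unknown, and a low value can stand for few reads or none. As a guide, 4 genes of the Y chromosome lay between 4.48 and 5.68 in all MEF-2 lines, with ranges over these lines of 0.10 to 0.16. Over all lines these genes averaged 7.4 to 8.8, and deviations are shrunken towards the average of each gene. Their values are therefore not a floor for other genes. Of the fibroblast markers, the collagens that head the list were among the highest values, with clonal means in MEF-1 and MEF-2 of 21.04 and 20.74 for Col1a1, 19.78 and 20.12 for Col1a2, 19.30 and 18.69 for Col3a1, and 17.62 and 18.11 for Col5a1. Others of that list were low or differed between the sets, with averages over all lines of 3.76 for Fap, 4.74 for Thy1, 8.40 for Lum and 8.47 for Dcn.

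Promoter windows from RefSeq (build GRCm38.p6), holding 250 bases before and 50 bases after the start of a gene, were at hand for 7 of the 10 genes, with Actg2, Tagln and Myh11 unmatched. A CArG box is CC and GG around 6 bases that are each A or T, and it reads the same way on both strands. With every central base A or T it was found in 1 of the 7 windows, that of Myl9, and in 1.63% of 32851 windows of all genes. With at most 1 C or G in the centre it was found in 2 of the 7 windows, those of Acta2 and Myl9, and in 9.98% of all windows. All matches found in the 7 windows are shown, with 10 bases on each side and the box in capitals. They run 5′ to 3′ on the strand of the gene and are numbered from the RefSeq start.
Acta2, box at -84 to -75, chr19:34255438-34255467, minus strand: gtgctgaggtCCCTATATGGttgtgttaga
Acta2, box at -34 to -25, chr19:34255388-34255417, minus strand: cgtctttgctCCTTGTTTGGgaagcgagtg
Myl9, box at -161 to -152, chr2:156775293-156775322, plus strand: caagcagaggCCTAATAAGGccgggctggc
Myl9, box at -99 to -90, chr2:156775355-156775384, plus strand: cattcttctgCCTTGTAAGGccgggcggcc
The Myl9 stretches lie before the GENCODE gene model, whereas the Acta2 stretches fall inside its first exon, because that model begins further upstream, at position 34255590. A match of letters is not a binding site, and no binding was measured in these samples.

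Expression of the contractile genes was higher in the MEF-2 than in the MEF-1 clonal lines for 9 of the 10 genes and lower for 0 of them (limma, 7 against 7 lines, adjusted p under 0.05). Over all tested genes, 27.5% were called higher and 28.6% lower in MEF-2. The median difference, MEF-2 minus MEF-1, was 0.92 on the log2 scale over the 10 genes and -0.00 over all tested genes. Actg2 and Cnn1 differed most, by 28.7-fold and 11.5-fold, and Tpm2 was the gene that was not called. For 3 of the 10 genes, namely Actg2, Cnn1 and Smtn, all 7 MEF-2 clonal lines lay above all 7 MEF-1 clonal lines, as did 12.3% of all tested genes. This count was 6 without MEF-1 clonal line 6 and 5 without MEF-2 clonal line 3 or MEF-2 clonal line 6, and it was 5 when the median shift of each gene's chromosome was subtracted. The number of called genes was 9 whichever single line was left out.

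**Figure D1:**
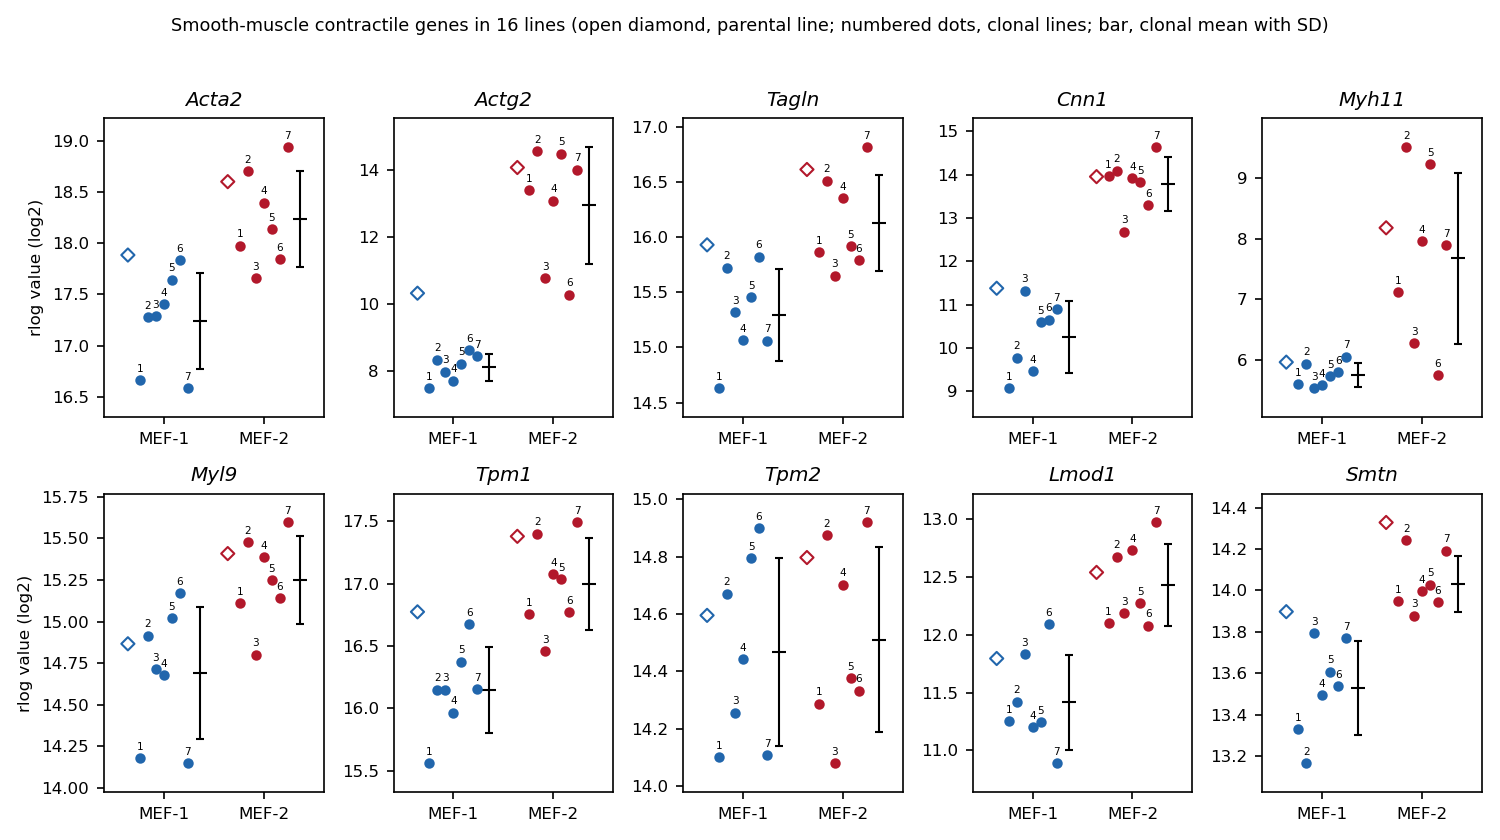
rlog values (log2, each panel on its own scale) of the 10 genes in the parental line (open diamond) and in the 7 numbered clonal lines (dots) of MEF-1 in blue and MEF-2 in red, with the clonal mean and SD as a bar. The red dots of Actg2, Cnn1 and Smtn all lie above the blue dots, those of Tpm2 span the same values as the blue dots, and Actg2 and Myh11 are spread widely among the MEF-2 clonal lines.

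Acta2 encodes the smooth-muscle alpha-actin (chr19:34241090-34255590, minus strand). In the MEF-1 clonal lines its rlog values ran from 16.58 over a median of 17.29 to 17.84, and in the MEF-2 clonal lines from 17.66 over 18.14 to 18.94. Of the 7 MEF-2 clonal lines, 6 lay above every MEF-1 clonal line, and only clonal line 3 of MEF-2 was lower than the highest of them. The clonal means were 17.24 ± 0.47 and 18.24 ± 0.47 (SD, n = 7 each), a difference of 1.00 (SE 0.23, limma adjusted p = 0.00227) or 1.99-fold. Genes of chromosome 19 as a whole had a median deviation 0.36 lower in MEF-2 than in MEF-1, against -0.08 to 0.03 for the chromosomes of the other members. From read coverage, the paper counts chromosome 19 among the aneuploid chromosomes of these cell lines. The part of copy number in the Acta2 values was not tested. With the median of its chromosome subtracted from each line, the difference of Acta2 was 1.36 (adjusted p = 0.000149).

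Actg2 encodes the gamma-actin of visceral smooth muscle (chr6:83512905-83536265, minus strand). Its values in the MEF-1 clonal lines lay between 7.49 and 8.63, with a median of 8.22. Over the MEF-2 clones they ran from 10.28 over a median of 13.41 to 14.58. There was no overlap, but the MEF-2 lines fell far apart, with clonal lines 3 (10.79) and 6 (10.28) well below the other 5, which lay at 13.10 or higher. The means of 8.11 ± 0.41 and 12.96 ± 1.74 (SD, n = 7 each) differed by 4.84 (SE 0.61, limma adjusted p = 1.08e-05), which was the 32nd largest absolute difference of the 15285 genes tested. In the MEF-1 set its parental line, at 10.33, was higher than any of the 7 clones.

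The calponin family is represented by Tagln and Cnn1. Tagln encodes transgelin, also called SM22, which binds actin filaments (chr9:45929619-45936058, minus strand). It ran from 14.63 over a median of 15.32 to 15.82 in the MEF-1 clonal lines and from 15.65 over 15.92 to 16.82 in the MEF-2 clonal lines. Of the 7 MEF-2 lines, 5 lay above every MEF-1 line, and MEF-2 clonal lines 3 and 6 did not. The means of 15.30 ± 0.42 and 16.13 ± 0.43 differed by 0.83 (SE 0.21, limma adjusted p = 0.00337) or 1.78-fold. Tagln overlaps Pcsk7 by 108 bases and the antisense gene Gm48529 by 3627 bases on the other strand. The library kit keeps strand, and whether quantification used it is not given in the sources used here.

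Cnn1 encodes calponin 1, an inhibitor of the actin-activated myosin ATPase (chr9:22099216-22109630, plus strand). Its values ran from 9.08 over a median of 10.60 to 11.32 in the MEF-1 clonal lines, and from 12.68 over 13.92 to 14.64 among the MEF-2 clones. The lowest MEF-2 line, clonal line 3, was still higher than the highest MEF-1 line, also a clonal line 3. Means of 10.25 ± 0.82 and 13.78 ± 0.62 gave a difference of 3.52 (SE 0.35, limma adjusted p = 1.03e-06), the 135th largest of all genes tested. The spread of Cnn1 among the MEF-1 clonal lines was wide, since its SD there was larger than that of 96.3% of the tested genes.

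Both myosin genes were higher in MEF-2 with overlap. Myh11 encodes the smooth-muscle myosin heavy chain, the motor that is most restricted to mature smooth muscle (chr16:14194535-14291372, minus strand). In the MEF-1 clonal lines its values stayed between 5.54 and 6.06, and in the MEF-2 clonal lines they ran from 5.75 over a median of 7.89 to 9.51. MEF-2 clonal line 6 was within the MEF-1 values and clonal line 3, at 6.27, just above them, whereas clonal lines 2 and 5 reached 9.51 and 9.23. The means of 5.75 ± 0.19 and 7.68 ± 1.41 differed by 1.92 (SE 0.49, limma adjusted p = 0.00387) or 3.79-fold.

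Myl9 encodes the regulatory light chain of smooth-muscle myosin, whose phosphorylation starts contraction (chr2:156775420-156781658, plus strand), and its window holds the CArG box and the match with 1 G in the centre printed above. It ran from 14.15 over 14.71 to 15.17 in the MEF-1 clonal lines and from 14.80 over 15.25 to 15.59 in the MEF-2 clonal lines. Of the 7 MEF-2 lines, 4 were higher than every MEF-1 line and the other 3 overlapped with them. The difference between the means of 14.69 ± 0.40 and 15.25 ± 0.27 was 0.56 (SE 0.17, limma adjusted p = 0.00952) or 1.48-fold.

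Of the tropomyosin genes, Tpm1 was called and Tpm2 was not. Tropomyosins lie along the actin filament and control access of myosin. Tpm1 (chr9:67022590-67049406, minus strand) ran from 15.56 over a median of 16.15 to 16.68 in the MEF-1 clonal lines and from 16.46 over 17.03 to 17.49 in the MEF-2 clonal lines, where all but clonal line 3 lay above every MEF-1 line. Its means of 16.15 ± 0.34 and 17.00 ± 0.37 differed by 0.85 (SE 0.18, limma adjusted p = 0.000913). Tpm2 (chr4:43514711-43523765, minus strand) ran from 14.10 over 14.44 to 14.90 and from 14.08 over 14.38 to 14.92. The sets covered the same values, and the means of 14.47 ± 0.33 and 14.51 ± 0.32 differed by 0.04, with a 95% interval of -0.30 to 0.38 (limma adjusted p = 0.836). This interval lies below the Tpm1 estimate, although the difference between both genes was not tested.

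Lmod1 and Smtn complete the group. Lmod1 encodes leiomodin 1, which nucleates actin filaments in smooth muscle (chr1:135324807-135368065, plus strand). Its values ran from 10.89 over 11.25 to 12.09 in the MEF-1 clonal lines and from 12.08 over 12.27 to 12.97 in the MEF-2 clonal lines, so that only the lowest MEF-2 line, clonal line 6, overlapped with MEF-1 (clonal line 6). The means of 11.42 ± 0.41 and 12.43 ± 0.36 differed by 1.01 (SE 0.19, limma adjusted p = 0.000342) or 2.02-fold. Smtn encodes smoothelin, an actin-binding protein of contractile smooth muscle (chr11:3517523-3540612, minus strand). It ran from 13.16 over 13.54 to 13.79 and from 13.88 over 14.00 to 14.24, without overlap but with little distance between the sets. Its difference of 0.50 (SE 0.09, limma adjusted p = 0.000361) between means of 13.53 ± 0.23 and 14.03 ± 0.14 was the smallest of the called ones.

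**Figure D2:**
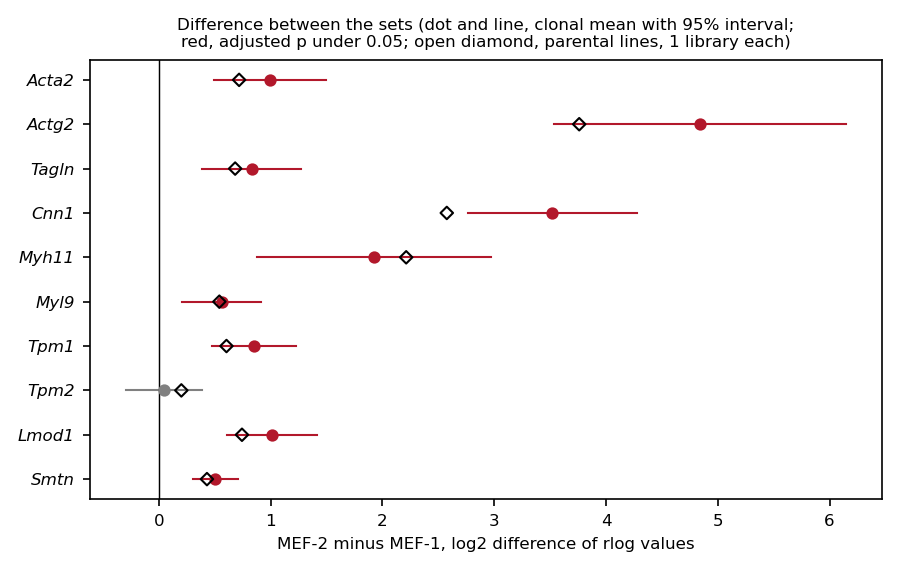
Difference of rlog values, MEF-2 minus MEF-1 (log2, horizontal axis), for each gene. Dots are differences of the clonal means with their 95% intervals as lines, red where the adjusted p was under 0.05, and open diamonds are the differences of the parental lines. Actg2 (4.84) and Cnn1 (3.52) lie furthest to the right, and the interval of Tpm2 includes 0.

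Compared per kilobase of exon, Acta2 had the highest level of the group in both sets, at 16.11 in MEF-1 and 17.10 in MEF-2 (mean log2 level per kb of the clonal lines), and Myh11 the lowest, at 2.83 and 4.75. In MEF-1 the order continued with Myl9 (14.47), Tagln (14.31), Tpm1 (13.45), Tpm2 (12.93), Smtn (11.40), Lmod1 (9.44), Cnn1 (8.80) and Actg2 (7.48). Myl9 and Tagln, and likewise Lmod1 and Cnn1, were closer to each other than the larger of their SDs over lines. In MEF-2 the order was Tagln (15.14), Myl9 (15.03), Tpm1 (14.30), Tpm2 (12.97), Cnn1 (12.32), Actg2 (12.32), Smtn (11.90) and Lmod1 (10.45). There Tagln and Myl9, Tpm2 and Actg2, Cnn1 and Actg2, Actg2 and Smtn, and Cnn1 and Smtn were not separated beyond the larger SD. Of the 31-base words in their transcripts, 1.39% were shared with other genes for Acta2 and 1.21% for Actg2, and the share was 0.905% or lower for the other 8.

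Variation between clonal lines of the same set was wide for most of the contractile genes. The range over 7 clonal lines was 1 or more on the log2 scale for 7 of the 10 genes in MEF-1 and for 6 of the 10 in MEF-2, compared with 24.2% and 18.1% of all tested genes. The count in MEF-1 fell to 4 without clonal line 1 and to 3 without clonal line 6. In MEF-2 it was 4 to 6 when 1 line was left out. The median SD of the 10 genes was 0.40 in both sets, against 0.20 in MEF-1 and 0.16 in MEF-2 over all tested genes. Genes of all levels enter these shares and medians, and differences of weakly expressed genes are understated. No comparison with genes of like level was made. In MEF-2 the range of Actg2 was 4.30 (19.7-fold) and that of Myh11 was 3.76 (13.6-fold), with SDs above those of 99.8% and 99.6% of tested genes. Smtn and Myh11 had ranges of 0.63 and 0.52 in MEF-1, near the median of 0.56 over all tested genes, and Smtn had a range of 0.36 in MEF-2, where that median was 0.46.

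The same clonal lines tended to be high or low for several genes. In MEF-1, clonal line 6 had the highest value for 7 of the 10 genes and lay above the clonal mean for all 10. Clonal line 1 was lowest for 5 and among the 2 lowest for 8. In MEF-2, clonal line 7 was highest for 7 genes and clonal line 2 was among the 2 highest for 9. At the other end, clonal line 3 was lowest for 7 of the 10 genes and clonal line 6 for the other 3, namely Actg2, Myh11 and Lmod1. Clonal line 5 of MEF-2 was an exception to a common order, being 1.55 above the clonal mean for Myh11, while 6 of the 10 genes were below their clonal mean in it.

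**Figure D3:**
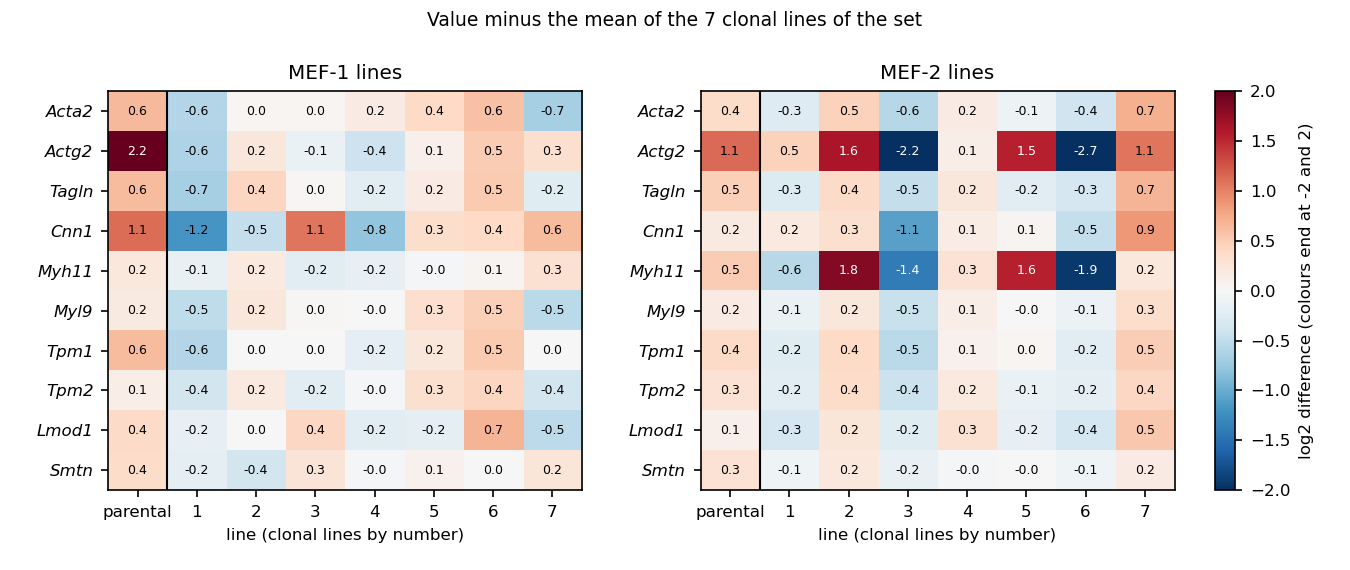
Value of each gene in each line minus the mean of the 7 clonal lines of its set (log2, colour and number), for the MEF-1 lines on the left and the MEF-2 lines on the right. Clonal line 1 of MEF-1 and clonal lines 3 and 6 of MEF-2 are below the mean for all 10 genes, and the parental column is above 0 throughout.

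The pairwise correlations express the same pattern. Across the 7 MEF-2 clonal lines, Pearson's r was above 0 for all 45 pairs of the 10 genes (0.536 to 0.988, median 0.858). Across the 7 MEF-1 clonal lines it was above 0 for 37 of 45 pairs (-0.315 to 0.967, median 0.489), and the median was 0.294 without clonal line 1. Over all pairs of tested genes the median was 0.0015 in MEF-1 and 0.0135 in MEF-2. These pairs share their libraries and are not independent of each other. In exact permutation tests over all orders of the 7 lines (two-sided, 90 relations adjusted together), 26 pairs in MEF-2 and 7 in MEF-1 had an adjusted p of r under 0.05, and 18 and 4 of them also had one for Spearman's rho. The difference between the sets in these counts was not tested.

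Acta2 and Tagln were the closest pair in MEF-2, with r = 0.988 (exact permutation p = 0.000198, the least possible with 7 lines, and adjusted p = 0.00446) and rho = 1 (p = 0.000397, adjusted p = 0.00893). Without the 2 lines farthest from the median of Acta2, r was 0.957. In MEF-1 the closest pair was Acta2 and Myl9, with r = 0.967 (exact permutation p = 0.00317, adjusted p = 0.019) and rho = 0.857 (p = 0.0238, adjusted p = 0.0739), and r was 0.819 without the 2 farthest lines. Actg2 and Myh11, which share the low clonal lines 3 and 6 and the high lines 2 and 5, had r = 0.923 in MEF-2 (exact permutation p = 0.00377, adjusted p = 0.02), rho = 0.893 (p = 0.0123, adjusted p = 0.0481) and r = 0.83 without the 2 farthest lines. In MEF-1 the same pair gave r = 0.74 (exact permutation p = 0.0623, adjusted p = 0.123). Smtn and Myh11 had the lowest median r with the other 9 genes in MEF-1, at -0.02 and 0.12.

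**Figure D4:**
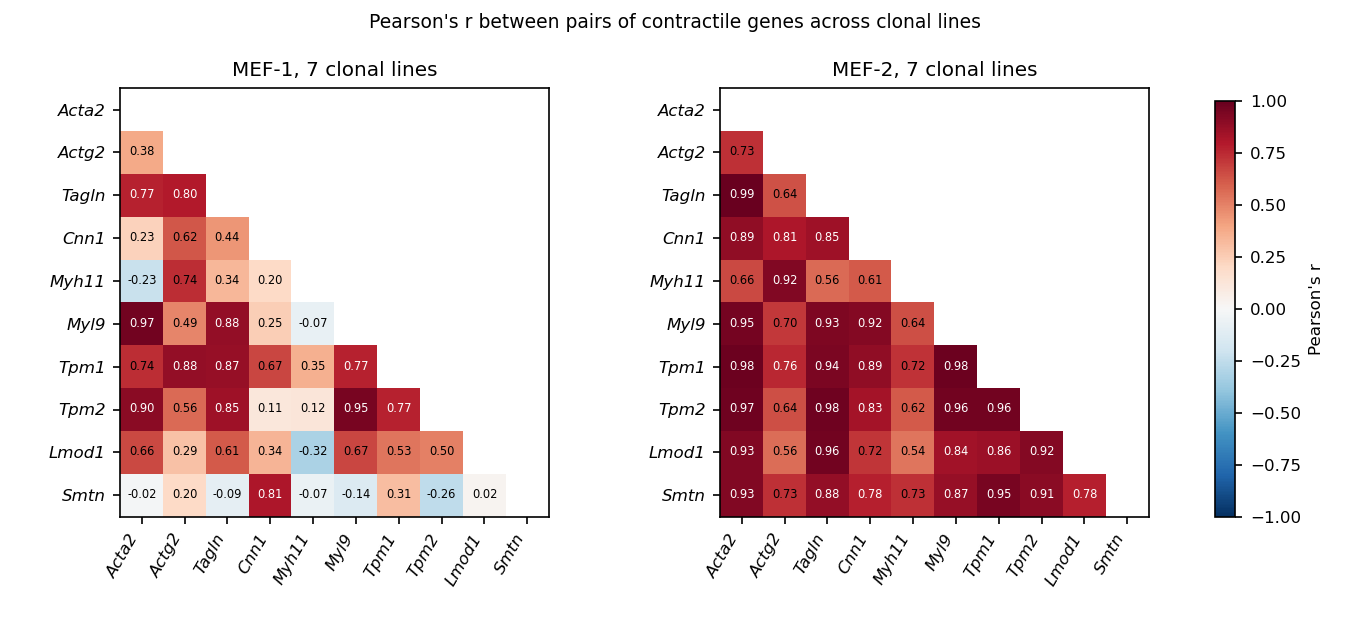
Pearson's r between each pair of the 10 genes across 7 clonal lines, for MEF-1 on the left and MEF-2 on the right (colour and number, from -1 to 1). In MEF-2 every cell is above 0, and in MEF-1 the rows of Myh11 and Smtn hold values near 0 or below it.

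Over the 14 clonal lines, with the mean of each set subtracted, the other genes most like Acta2 were Vim (r = 0.965), Cdr2 (0.950), Prr14 (0.943), Cyfip1 (0.942) and Dstn (0.941) out of 15284 genes ranked. Vim is the intermediate filament of mesenchymal cells and Dstn, destrin, depolymerises actin. Among the contractile genes, Myl9 ranked 3 (r = 0.944), Tpm2 ranked 8 (0.939), Tagln 52 (0.880), Tpm1 86 (0.861) and Lmod1 249 (0.781). Actg2, Cnn1, Myh11 and Smtn ranked between 1759 and 4357, with r of 0.564 to 0.323. These are descriptions over lines that share their libraries. Tpm2 was thus among the genes closest to Acta2 within the sets, although its difference between the sets was not called.

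For the 10 genes described here, the parental lines were on the high side of their clones. In MEF-1, the parental line lay above all 7 clonal lines for 6 of the 10 genes (Acta2, Actg2, Tagln, Cnn1, Tpm1 and Smtn), compared with 20.2% of all tested genes, and below all of them for 0 (20.8% of all tested genes). In MEF-2 this was so for 1 gene, Smtn (15.8% of all tested genes above), and for 0 below (18.5%). Without clonal line 7 of MEF-2, the count was 2. In both sets the parental value was above the clonal mean for 10 of the 10 genes, as for 47.4% of tested genes in MEF-1 and 49.2% in MEF-2. For the 10 genes the median distance was 0.50 (MEF-1) and 0.33 (MEF-2). Actg2 was furthest from its clones, by 2.21 in MEF-1 and 1.13 in MEF-2. A parental line has 1 library, so none of this was tested. Between the parental lines, MEF-2 was higher for all 10 genes, with a median difference of 0.70, from 0.20 for Tpm2 to 3.76 for Actg2.

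Among the genes that regulate the programme, Srf itself had clonal means of 12.15 ± 0.39 in MEF-1 and 12.12 ± 0.16 in MEF-2, a difference of -0.03 (SE 0.15, limma adjusted p = 0.890). Myocd, the smooth-muscle and cardiac co-activator of Srf, lay between 3.36 and 3.92 in all MEF-1 clones but between 6.05 and 8.39 in all MEF-2 clones, with no overlap. Its difference was 3.68 (SE 0.33, limma adjusted p = 3.02e-07). The MEF-1 values of Myocd followed the level given to genes without reads over the 8 MEF-1 lines (r = 0.834, exact permutation p = 0.00893, adjusted p = 0.0268 over 3 relations; rho = 0.857, p = 0.0107; r = 0.836 without the 2 farthest lines), so that few reads and none cannot be told apart in them. The same relation gave r = 0.29 for Myh11 (exact permutation p = 0.474, adjusted p = 0.474) and r = 0.643 for Actg2 (exact permutation p = 0.0829, adjusted p = 0.124). The range of Myocd over the 8 MEF-1 lines was 0.56, wider than the 0.10 to 0.16 of the 4 Y chromosome genes over the MEF-2 lines. The broadly expressed co-activator Mrtfb was higher in MEF-2 by 0.32 (SE 0.07, limma adjusted p = 0.000808). Mrtfa gave -0.11 (SE 0.07, adjusted p = 0.200) and was called only without MEF-1 clonal line 2 (-0.16, adjusted p = 0.0319).

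Within MEF-2, Myocd did not have the order of the contractile genes. It was highest in clonal lines 6 (8.39) and 1 (8.27) and lowest in clonal line 7 (6.05), the line with the highest Acta2. Its r with Acta2 over the 7 MEF-2 clonal lines was -0.684 (exact permutation p = 0.0986, adjusted p = 0.263 over 8 relations), rho was -0.571 (p = 0.2, adjusted p = 0.32), and r was -0.357 without the 2 lines farthest from its median. None of the 8 relations of Srf, Myocd, Mrtfa and Mrtfb with Acta2 had an adjusted p under 0.05, and the lowest was 0.176, for rho.

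Of 26 further genes of the contractile apparatus, 25 were tested, and 13 were called higher, 4 lower and 8 neither in MEF-2, with a median difference of 0.58. Over all tested genes, 27.5% were higher and 28.6% lower, with a median difference of -0.00, and the counts of all lists stand beside these shares. Synpo2, which bundles actin, and Fhl1, a LIM-domain protein of muscle, were higher by 1.52 and 1.30. Aoc3, an amine oxidase of smooth muscle and fat cells, and Itga8, an integrin of smooth muscle and fibroblasts, were lower by 2.43 and 0.73 on the log2 scale. Itga8 was not called without any 1 of MEF-1 clonal lines 1, 2, 4 and 5 or MEF-2 clonal lines 1, 2, 3, 5 and 6 (limma adjusted p 0.0560 to 0.0762), and the number lower was 2 without MEF-1 clonal line 1 or 4 or MEF-2 clonal line 1, 2 or 5. Among 18 relatives of the contractile genes from the same families, most of them of non-muscle cells, 17 were tested, with 6 higher, 2 lower and 9 neither, and a median difference of 0.29. Lmod3 (1.21), a leiomodin of skeletal muscle, and Tmod2 (1.17), which caps actin filaments, were higher, whereas Tmod1 (-1.87), a tropomodulin of striated muscle and other cells, and the myosin light chain Myl12b (-0.83) were lower.

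Of 20 regulators of the programme, 18 were tested, with 6 higher, 3 lower and 9 neither, and a median difference of 0.04, beside 27.5% higher and 28.6% lower of all tested genes. Besides Myocd, Hey1, a transcriptional repressor downstream of Notch, was higher by 1.63. Gata6, a transcription factor of vascular smooth muscle, and Egr1, an immediate early gene, had differences of -2.54 and -0.88. Egr1 was not called without any 1 of MEF-1 clonal lines 1, 3, 6 and 7 or MEF-2 clonal lines 1, 2, 5 and 6 (limma adjusted p 0.0618 to 0.0951), with the parental lines added (0.114), with no filter on the average (0.0592) or with no trend in the variance prior (0.0535). The number lower was 1 without MEF-1 clonal line 1 or 6 or MEF-2 clonal line 2.

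Markers of other cell types were examined because contractile genes are shared between mesenchymal cells. Of 26 striated muscle markers, 11 were tested, with 5 higher, 2 lower and 4 neither, and 15 had an average of 0 or lower, among them Actc1, Myh1 and Myh2 and, named after their values were seen, Myod1, Myog, Myf5, Pax7 and Ckm. Acta1, the skeletal muscle actin, was higher in MEF-2 by 2.77 (clonal means 5.84 and 8.60) and Tnni1, a slow-muscle troponin, by 1.50, while Ttn (-0.82) and Tnnc1 (-0.60) were lower. A summed level is the log2 of the summed unlogged values of a list, so that its highest genes weigh most. For the striated list it lay between 8.51 and 9.14 over the clones of MEF-1 and between 9.38 and 10.68 over those of MEF-2. Of 10 pericyte markers, 9 were tested, with 5 higher, 0 lower and 4 neither, and the summed levels of 15.56 to 15.87 and 15.62 to 15.87 overlapped. Kcnj8 (1.73) and Abcc9 (1.46), subunits of a potassium channel, and Rgs5 (1.20) were higher in MEF-2, and Cspg4, Pdgfrb and Notch3 were not called, with differences of 0.16, -0.26 and -0.09. Abcc9 was not called without any 1 of MEF-1 clonal lines 2, 3 and 7 or MEF-2 clonal lines 2, 4 and 5 (limma adjusted p 0.0515 to 0.0669), and 3 pericyte markers were higher without MEF-1 clonal line 2, 3 or 7 or MEF-2 clonal line 4. Without MEF-1 clonal line 5, and with chromosome-centred values, 1 pericyte marker was lower. Higher values of contractile genes and of some pericyte and striated muscle markers thus stood in the same set, MEF-2. Their order over single clonal lines was not compared, and the part of these markers in the result was not tested.

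Among 16 fibroblast markers, all tested, 1 was higher, 5 were lower and 10 neither. Thy1, a surface glycoprotein, was higher in MEF-2 by 2.59. The number higher was 2 without MEF-2 clonal line 3 or 7. It was also 2 with genes of all types, no trend in the variance prior, a robust variance prior, added parental lines or chromosome-centred values. The matrix proteoglycans Dcn and Lum were lower by 4.74 and 3.68 on the log2 scale, and the others that were lower, named after their values were seen, were Fap (-1.86), the receptor Pdgfra (-1.85) and Col3a1 (-0.60). Summed levels, which follow the highest genes of the list, were 22.33 to 22.79 in MEF-1 and 22.15 to 22.86 in MEF-2 and overlapped. Of 10 endothelial markers, 8 were tested, with 2 higher (Esam 1.08, Emcn 0.18) and 2 lower (Kdr -0.89, Vwf -0.56), and Pecam1, Cdh5 and Tek had averages of 2.18, 0.43 and 4.94. Flt1, named after its values were seen, had the highest average of this list, 8.08. Esam was not called without any 1 of MEF-1 clonal lines 1, 2, 3, 6 and 7 or MEF-2 clonal lines 1, 3 and 7 (limma adjusted p 0.0540 to 0.0757). Emcn was not called without any 1 of MEF-1 clonal lines 3, 4 and 5 or MEF-2 clonal lines 2, 3 and 7 (0.0757 to 0.0849), so that 0 endothelial markers were higher without MEF-1 clonal line 3 or MEF-2 clonal line 3 or 7. In the epithelial list, 6 of 10 were tested, with Cldn7 lower (-0.48) and 0 higher, a call that was lost without any 1 of MEF-1 clonal lines 1, 4 and 5 or MEF-2 clonal lines 1, 2, 3 and 7 (0.0509 to 0.0693), while 2 were lower without MEF-1 clonal line 3 or 6. In the haematopoietic list, 5 of 10 were tested, with Csf1r higher (1.36) and Lyz2 lower (-2.80), and 2 or 3 were higher without MEF-1 clonal line 1 or MEF-2 clonal line 3. Of the epithelial genes, Cdh1 averaged 7.44 over all lines and Epcam, Krt8 and Krt18 averaged 3.15, 0.30 and 0.70. Of the blood cell genes, Cd68 averaged 5.03, Ptprc 2.08 and Adgre1 -1.92. Summed levels were 7.62 to 9.43 and 7.79 to 9.50 for the endothelial list, 7.04 to 8.55 and 6.80 to 8.45 for the epithelial list, and 6.83 to 7.79 and 6.76 to 8.54 for the haematopoietic list in MEF-1 and MEF-2.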

How the data were processed

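Ribosomal RNA was depleted from total RNA and directional libraries were sequenced, 1 per line. According to the submitters' notes and methods, reads were trimmed with Trim Galore (0.6.0) and quantified with Salmon (1.5.2) against mm10, and the log2 values deposited by the authors are rlog values from DESeq2 (1.24.0). How transcripts were summarised to genes, and whether rlog was blind to groups, is not given in the sources used here. Target capture bisulfite data were not analysed here.

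Identifiers were matched to GENCODE mouse release 21, with 253 of 54453 genes unmatched. Protein-coding genes with an average above 0 over the 16 lines were fitted with limma (3.58.1, R 4.3.3), 7 against 7 clonal lines, using a variance prior with a trend and adjusting p-values (Benjamini-Hochberg) over all 15285 genes, with calls at an adjusted p under 0.05. The 7 clonal lines served as replicates of a set, and the limma p-values set the difference between the sets against the spread between clonal lines. As each set goes back to 1 embryo and 1 culture, these p-values hold no spread between embryos. Correlations across lines were tested by exact permutation. Named genes are the 10 members, Srf, Myocd, Mrtfa and Mrtfb, the 5 genes most like Acta2, and, of each list, the 2 called ones that differed most upwards and downwards and, of marker lists, the first 4; a few others are named as chosen after their values were seen. Members and lists were chosen with earlier results of these data known, and 1 list is not reported here. Other filters, priors and centrings, added parental lines, a replicate block and leaving out each line were tried. The fit was tested on simulated data. Summaries used Python 3.11.15, pandas 2.3.3, numpy 2.4.6 and matplotlib 3.10.9.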

Additional observations from a re-analysis of the deposited data

Results flagged for a closer look

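For Tmod1, a tropomodulin that caps actin filaments, every MEF-1 clonal line lay above its parental line (4.94) and every MEF-2 clonal line below its parental line (4.49). The clonal lines ran from 5.29 to 6.67 in MEF-1 and from 3.53 to 4.48 in MEF-2, so that the mean distance from the parental line was 1.03 in MEF-1 and -0.39 in MEF-2. This difference between the sets was not tested, as each parental line has 1 library. In MEF-2 the highest clonal line, clonal line 2, was at 4.484 against 4.489 for the parental line. Over all tested genes, the parental line lay below its clonal lines for 20.8% in MEF-1 and above them for 15.8% in MEF-2.

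Thy1 stood apart in MEF-1 clonal line 4, at 3.44 (3.435 before rounding), with the next of the 7 values at 2.99, a gap of 0.627 of the whole range. Of 88 sets of 7 values examined, this was the 1 with such a gap, where chance gives about 1 in 20, or 4.4.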

How the results depend on the processing

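The differences of the 9 called genes kept their direction and their calls under all 23 settings of the fit, 14 of which leave out a line. Of 230 alternative values for the 10 genes, 226 stayed on the same side with the same direction and 4, all for Tpm2, changed sign. Tpm2 ran from -0.03 to 0.11 and Srf from -0.15 to 0.05 when 1 line was left out (Tpm2 -0.0183, -0.0174, -0.0181 and -0.0255, Srf 0.0355, 0.0468 and 0.0152 where reversed). The number of genes without overlap between the sets was 3 to 6 over the fits without 1 line and 5 with chromosome-centred values. Leaving out 1 line gave 3 to 7 genes with a range of 1 or more in MEF-1 and 4 to 6 in MEF-2. It also gave a median pairwise r of 0.294 to 0.637 in MEF-1, and 1 to 2 genes with the parental line outside its clones in MEF-2. Same-numbered clonal lines of both sets are different cells, and their deviations correlated between -0.133 and 0.2, so the numbers do not pair the lines. With the replicate block, 8226 instead of 8573 genes were called, 9 of them members, and Esam (adjusted p = 0.0637) and Emcn (0.0917) lost their calls. Esam was also lost with no filter on the average (0.0532), and Emcn with parental lines added (0.0686) or line-centred values (0.0826). Of 460 alternative counts for the gene lists, 406 were within 1.5 times the reported count. Depth is unknown, which limits the low values of Myocd in MEF-1, and the parental lines allow no test.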
